A study of Mus musculus with 14 samples.

Results

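The genes described here are 10 components of the Notch pathway in mesenchymal cells sorted from mouse forelimb buds: the ligand genes Jag1, Jag2 and Dll1, the receptor genes Notch1, Notch2 and Notch3, the fringe gene Lfng, and the HES and HEY family genes Hes1, Hey1 and Heyl. They were chosen by name from a count table of 24454 genes, with earlier results of these data known. All 10 were among the 15125 genes that passed the filter on low counts. The table holds 14 RNA-seq libraries of 5 populations. Every embryo carried the Sox9 IRES-EGFP allele, in which EGFP is made from the Sox9 locus, on a mixed Swiss Albino background. Each library came from forelimb buds pooled from many embryos, and the sort removed dead cells and cells bearing CD31, Ter119, CD45, EpCam, Gr1 or CD11b.

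Sox9-EGFP negative cells were taken as 3 populations at E10.5. The S9-JAG1+ limb bud mesenchymal progenitors (LMPs, 3 libraries) carried the JAG1 protein on their surface and lacked SCA-1. The S9-Pαhi LMPs (3 libraries) lacked JAG1 and SCA-1 and were high for PDGFRα. The S9-SCA-1+ cells (2 libraries, numbered 2 and 3) lacked JAG1 and carried SCA-1. Sox9-EGFP positive, PDGFRα high cells at E10.5 were the S9+Pαhi osteo-chondrogenic progenitors (OCPs, 3 libraries). The chondroblasts (3 libraries, phenotype S9+COL2+) were sorted from E11.5 buds, and their labelled gate was that of the OCPs. Population and stage cannot be told apart in what is said of them. Neither the OCPs nor the chondroblasts were gated on JAG1.

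Notch signalling works between touching cells. A DSL ligand (a Jagged or Delta protein) on the sending cell binds a Notch receptor on the receiving cell, the receptor is cut within the membrane by gamma-secretase, and its intracellular part moves to the nucleus and joins the DNA-binding protein RBPJ and a Mastermind coactivator. Genes of the HES and HEY families, which encode basic helix-loop-helix repressors, are the best known direct targets, and fringe glycosyltransferases such as LFNG add sugars to Notch receptors that alter which ligands they answer to. In the limb, the pathway is known for roles in vessels, muscle progenitors, the apical ectodermal ridge and cartilage. Because a ligand and a receptor act across a cell boundary, the RNA of sorted cells shows which populations carried each component and does not show which cells were in contact.

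RBPJ is known to bind the core TGGGAA, and the bases directly before the start site of 3 genes are shown because their letters differ in this respect: Jag1, the ligand by which a population was sorted, Lfng, the member with the core, and Hey2, a further HEY gene measured in the same libraries. All sequences are from RefSeq on GRCm38.p6, run 5' to 3' along the strand of the gene and end at the base before the start site. Capitals mark the core on either strand (TGGGAA or its reverse complement TTCCCA).
Jag1, minus strand, chr2:137116521-137116770: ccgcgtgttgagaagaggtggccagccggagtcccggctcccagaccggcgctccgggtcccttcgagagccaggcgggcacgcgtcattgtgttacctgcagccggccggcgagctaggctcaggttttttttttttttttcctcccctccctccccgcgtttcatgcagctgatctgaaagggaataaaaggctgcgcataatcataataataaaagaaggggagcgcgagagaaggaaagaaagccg
Lfng, plus strand, chr5:140607091-140607340: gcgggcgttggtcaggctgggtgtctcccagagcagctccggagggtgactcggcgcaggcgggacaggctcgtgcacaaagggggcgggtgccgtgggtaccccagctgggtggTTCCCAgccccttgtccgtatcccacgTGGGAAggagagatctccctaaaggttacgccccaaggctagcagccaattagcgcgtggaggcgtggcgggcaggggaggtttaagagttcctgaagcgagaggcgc
Hey2, minus strand, chr10:30842784-30843033: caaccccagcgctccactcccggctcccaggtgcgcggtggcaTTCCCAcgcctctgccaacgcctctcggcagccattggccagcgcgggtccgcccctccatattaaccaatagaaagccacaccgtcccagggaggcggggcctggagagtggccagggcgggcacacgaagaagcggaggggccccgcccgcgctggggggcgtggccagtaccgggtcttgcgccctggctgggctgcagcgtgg

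The Lfng window held the core 2 times, starting 135 and 108 bases before the start site, on opposite strands with 21 bases between them. The Hey2 window held it once, starting 207 bases before the start site, and the Jag1 window did not hold these letters. Of the members, 7 had a window in the RefSeq table (Jag1, Jag2, Dll1, Notch1, Notch2, Notch3 and Lfng) and 1 of them held the core. Hes1, Hey1 and Heyl had none. Among the further target genes with a window, the core stood in those of Hes5, Hes7 and Hey2 but not in those of Nrarp and Hes6. Across all 32851 windows of 250 bases the core stood in 21.6%, and the longer form GTGGGAA (or TTCCCAC), which includes the core, in 5.42%. A match of this kind describes letters and not binding.

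Totals ran from 20316583 to 29162751 counts per library, so that 3 counts corresponded to 0.101 to 0.149 CPM (counts relative to the TMM-scaled library total), the limit that a count of 0 allows. Levels are given as CPM with the SD over libraries. The summed CPM of 9 cartilage genes was 1545 to 3542 in OCP and chondroblast libraries and at most 347.1 elsewhere, and that of 8 posterior-distal limb genes was 1875 to 2637 in S9-JAG1+ LMPs and at most 902.4 elsewhere. The S9-SCA-1+ libraries had a summed level of 7 myogenic genes of 1501 and 1504 CPM (at most 11.4 elsewhere), whereas Ly6a, the gene of SCA-1, reached 3.23 CPM ± 0.183 (SD, n = 2). Within this population, replicate 3 had a summed level of 10 red blood cell genes of 4013 CPM and replicate 2 of 141.5. S9-JAG1+ replicate 3 stood apart by presomitic mesoderm genes, described with Dll1 below. RNA of a sorted population does not tell a smaller share of expressing cells from less RNA in each cell, and this holds for every level given here.

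Each population was set against the mean of the other 4, on the log2 scale, to ask which components set it apart. A call needed an adjusted p no higher than 0.1 and a log2 fold change of 1.2 or more in either direction. The tests used edgeR's quasi-likelihood method with Benjamini-Hochberg adjustment over all 15125 genes. These comparisons share libraries, and a gene high in 1 population is for that reason lower in the others relative to their mean. In S9-JAG1+ LMPs 5 of 10 members were called, where 10.6% of all genes tested were. Of these 4 were higher (2.88% of all genes) and 1 was lower (7.70%). The S9-Pαhi LMPs had 3 members called, all lower, against 3.84% of all genes in either direction and 2.31% lower. The OCPs had 4, all lower, against 5.01% in either direction and 1.64% lower. In chondroblasts 2 members were called, both higher, against 12.7% in either direction and 11.0% higher. S9-SCA-1+ cells had 4, against 11.3%, with 3 higher (4.46% of all genes) and 1 lower (6.80%). These counts include Jag1, whose direction the JAG1 gate set in S9-JAG1+ LMPs, S9-Pαhi LMPs and S9-SCA-1+ cells. Of the 9 other members, 4 were called in S9-JAG1+ LMPs (3 higher), 2 in S9-Pαhi LMPs and 3 in OCPs (all lower), 1 in chondroblasts and 3 in S9-SCA-1+ cells (all higher). Among those higher in S9-JAG1+ LMPs was Dll1, whose call rested on replicate 3 and whose value was -1.32 without it. The Dll1 call in OCPs also depended on single libraries, as given below. The median log2 fold change of the 10 members was -0.09 in S9-JAG1+ LMPs, -1.01 in S9-Pαhi LMPs, 0.08 in OCPs, 0.27 in chondroblasts and 0.11 in S9-SCA-1+ cells, and that of all genes tested lay between -0.01 and 0.05.

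**Figure D1:**
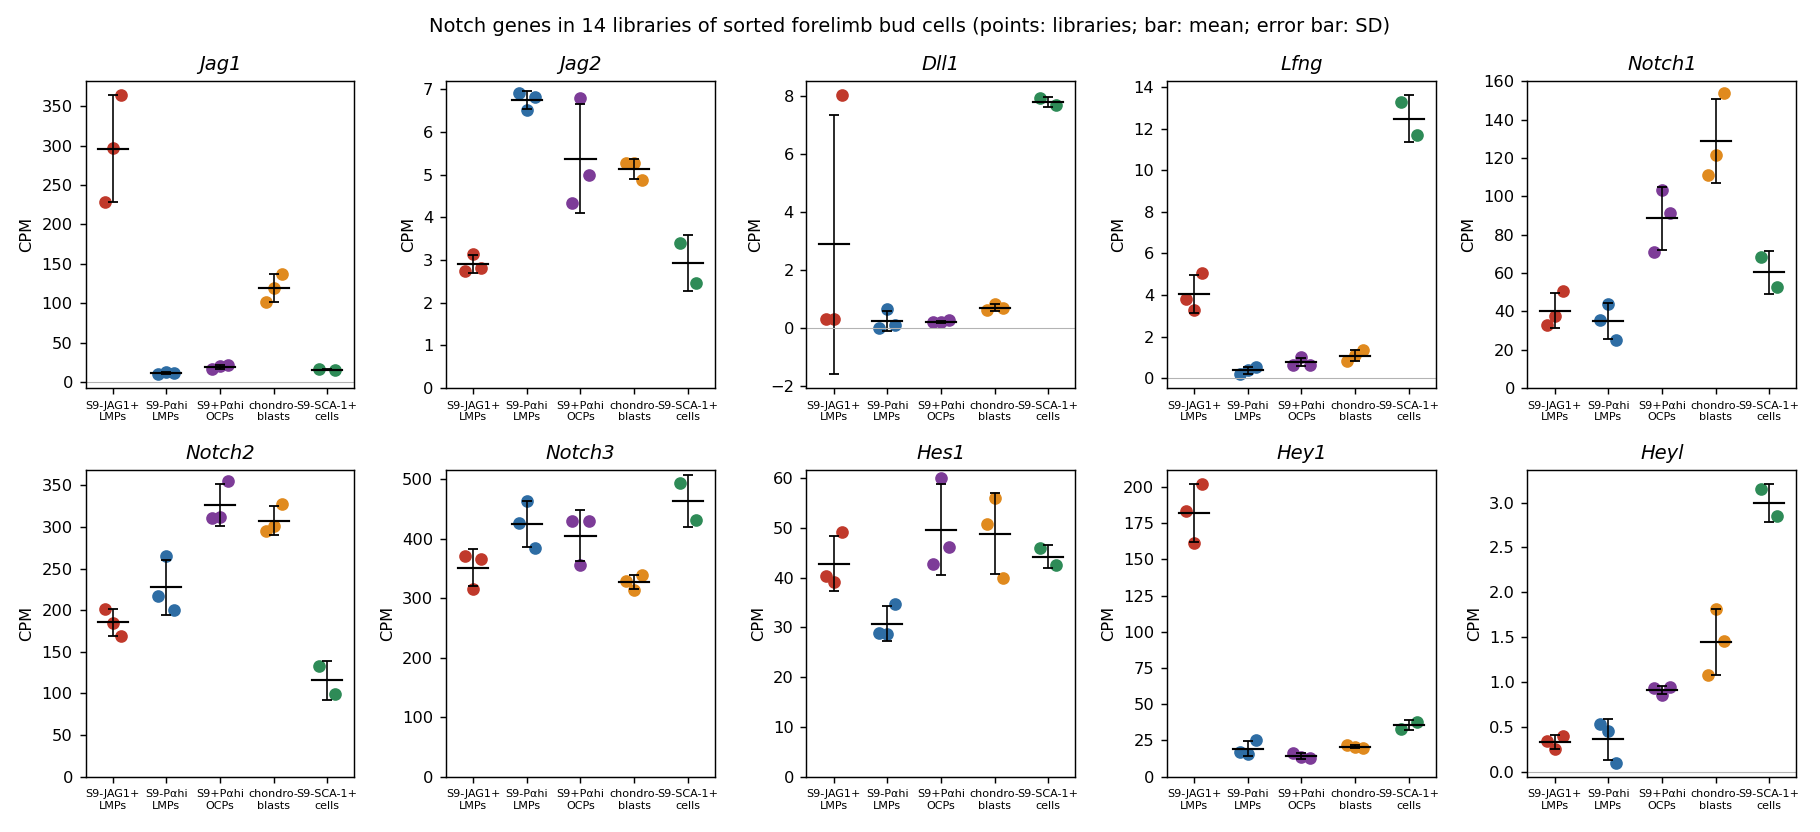
CPM of the 10 members in 14 libraries; each point is a library, the horizontal bar the mean and the error bar the SD of its population, on linear axes. Jag1 and Hey1 stood highest in S9-JAG1+ LMPs, Lfng and Heyl in S9-SCA-1+ cells and Notch1 in chondroblasts, whereas Notch3 and Hes1 differed little between populations and 1 of 3 S9-JAG1+ libraries was high for Dll1. The direction of Jag1 in S9-JAG1+ LMPs was set by the JAG1 gate.

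Jag1 (Entrez 16449, chr2:137081451-137116520, mm10) encodes a transmembrane ligand that can activate all mammalian Notch receptors. It was at 227.9, 297.2 and 363.7 CPM in the 3 S9-JAG1+ libraries, at 10.53, 13.2 and 11.7 in S9-Pαhi LMPs and at 16.16 and 15.99 in S9-SCA-1+ cells. Since these 3 populations were sorted for or against the JAG1 protein, these levels check the labels and are no finding: every JAG1+ library was above every JAG1- library. In the populations that were not gated on JAG1, the OCPs had 16.9, 20.9 and 21.3 CPM and the chondroblasts 102.1, 119.3 and 137.1.

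Chondroblasts and OCPs thus did not overlap for Jag1. The difference was 2.6004 ± 0.17 (log2, SE), a 6.06-fold higher level in chondroblasts (edgeR adjusted p = 3.32e-07), and it stayed between 2.47 and 2.69 when any library was left out. With all libraries, Jag1 was the only member called from OCPs to chondroblasts, where 7.77% of all genes were called and 6.60% were called higher. The mean chondroblast level was below that of the S9-JAG1+ LMPs (log2 difference 1.31 ± 0.16). The OCPs followed in the order of means, and neither the step from OCPs to S9-SCA-1+ cells (edgeR adjusted p = 0.227) nor that from there to S9-Pαhi LMPs (edgeR adjusted p = 0.102) passed the test. S9-JAG1+ LMPs, S9-SCA-1+ cells and S9-Pαhi LMPs were sorted for or against JAG1, so their places in this order are no finding.

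Jag2 (Entrez 16450, chr12:112907803-112929812), a second Jagged ligand known for its role in the apical ectodermal ridge, was low in all libraries. Its levels were 2.74, 3.14 and 2.81 CPM in S9-JAG1+ LMPs, 6.91, 6.51 and 6.82 in S9-Pαhi LMPs and 3.39 and 2.46 in S9-SCA-1+ cells. OCPs had 4.34, 6.80 and 4.99 CPM and chondroblasts 5.28, 5.27 and 4.87. The order of Jag2 was thus not that of Jag1: each S9-Pαhi library was above each S9-JAG1+ library, with a log2 difference of 1.22 ± 0.18 (edgeR adjusted p = 2.51e-04). Against the mean of the other 4 populations no fold change of Jag2 reached 1.2, the largest being 0.79 ± 0.14 in S9-Pαhi LMPs.

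Dll1 (Entrez 13388, chr17:15367354-15376932), a Delta ligand active in the presomitic mesoderm and in myogenic progenitors, showed a split within a population. In S9-SCA-1+ cells it was at 7.94 and 7.69 CPM (227 and 216 counts). S9-JAG1+ replicates 1 and 2 had 0.2997 and 0.293 CPM (7 counts each), and replicate 3 had 8.05 CPM (203 counts). The S9-JAG1+ library 3 thus lay above every other library, the other libraries of its population among the low ones. OCPs had 0.203, 0.190 and 0.253 CPM, S9-Pαhi LMPs 0, 0.639 and 0.0996, and chondroblasts 0.605, 0.821 and 0.668.

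The log2 fold change of Dll1 in S9-SCA-1+ cells against the mean of the other 4 was 3.73 ± 0.71 (edgeR adjusted p = 8.35e-04), and 4.55 without S9-JAG1+ replicate 3 (edgeR adjusted p = 7.76e-07). In S9-JAG1+ LMPs it was 1.94 ± 0.72 with all libraries (edgeR adjusted p = 0.0426) and turned to -1.32 without replicate 3 (edgeR adjusted p = 0.135). In OCPs it was -2.69 ± 1.10 (edgeR adjusted p = 0.0987), a call that was lost without any 1 of the OCP, chondroblast or S9-SCA-1+ libraries or of S9-Pαhi replicates 2 and 3. DESeq2 gave Dll1 no adjusted p. The same S9-JAG1+ library 3 had 23.8 CPM of T, 5.59 of Tbx6, 2.97 of Msgn1 and 9.43 of Dll3, genes known from the presomitic mesoderm. Replicates 1 and 2 had 5.35 and 10.4 CPM of T, 1.41 and 0.880 of Tbx6, 0.214 and 0.210 of Msgn1 and 1.28 and 1.09 of Dll3. Summed over 8 presomitic genes, which include Dll3 but not Dll1, the level was 10.3, 15.4 and 46.4 CPM in the S9-JAG1+ libraries 1, 2 and 3 and 2.21 to 10.7 in all others. T was above 5 CPM in all 3 S9-JAG1+ libraries and at most 0.476 elsewhere. The study lists T among genes with increased expression in S9-JAG1+ LMPs, and gives the posterior and/or distal mesenchyme as its normal place. Without T, the sum was 4.92, 5.03 and 22.6 CPM in S9-JAG1+ libraries 1, 2 and 3 and 1.78 to 10.4 in the others. Of the 8 presomitic genes, Ripply2 was at 0 in all 3 S9-JAG1+ libraries. Library 3 had 2 counts of Mesp1 and 4 of Mesp2, where a chondroblast library had 8 counts of Mesp2. The part of such cells in the Dll1 level was not tested. Of the annotated Dll1 exon bases, 20.5% also lie in A930024N18Rik on the other strand, and whether the counting used strand is not given in the sources used here.

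**Figure D2:**
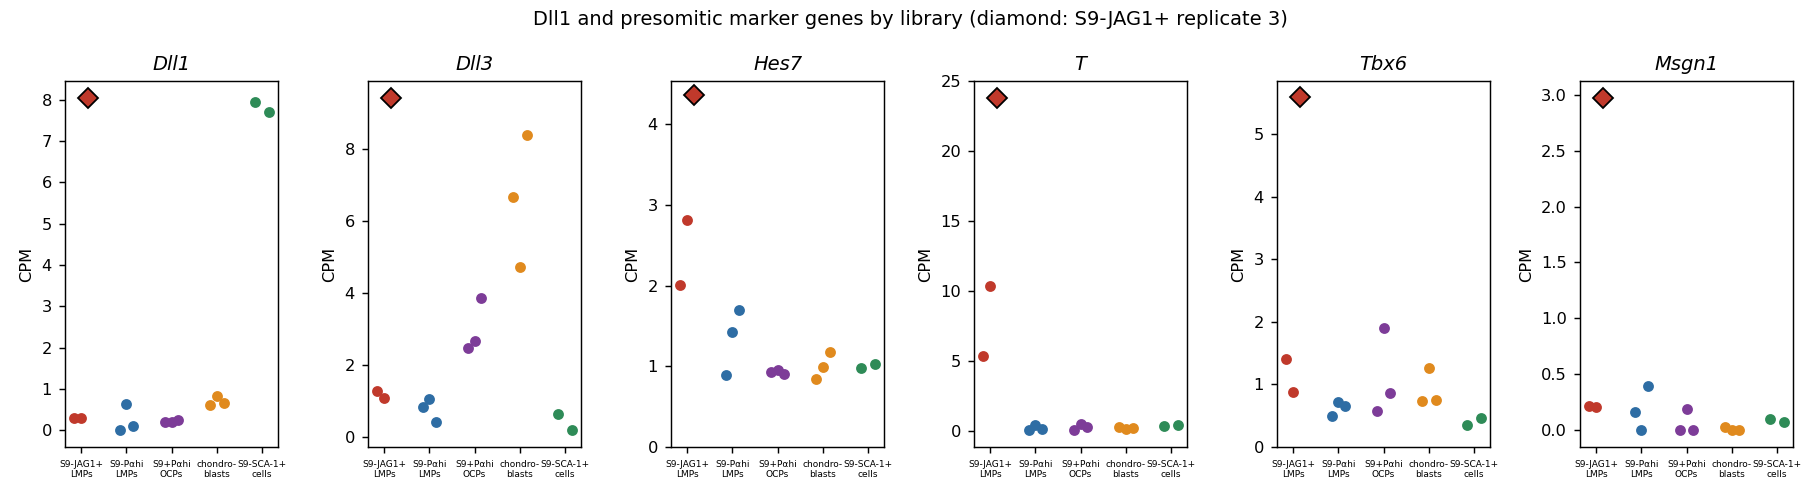
CPM of Dll1 and of 5 presomitic mesoderm genes by library and population, with S9-JAG1+ replicate 3 as a diamond and the other libraries as circles; Mesp1, Mesp2 and Ripply2, at no more than 0.269 CPM in any library, are not drawn. Replicate 3 was the highest library for all 6 genes drawn, at 8.05 CPM for Dll1 and 23.8 for T, while the S9-SCA-1+ libraries reached 7.94 and 7.69 for Dll1 with T at 0.315 and 0.427.

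Compared per kb of exon, which allows levels of different genes to be set side by side, Jag1 made up 97.4% ± 1.57 (SD, n = 3) of the summed level of the 3 ligand genes in S9-JAG1+ LMPs and 93.6% ± 1.05 in chondroblasts. Its share was 72.2% ± 3.18 in OCPs and 55.2% ± 2.22 in S9-Pαhi LMPs, where Jag2 made up 43.1% ± 4.50. In S9-SCA-1+ cells Jag1 made up 49.4% ± 1.60 and Dll1 38.5% ± 0.671 (n = 2). The summed ligand level was 55.5 CPM per kb ± 13.5 in S9-JAG1+ LMPs and 23.2 ± 3.15 in chondroblasts, and 3.89 to 5.93 in the 3 other populations. S9-JAG1+ LMPs, S9-Pαhi LMPs and S9-SCA-1+ cells were sorted for or against JAG1. The contrast between them in Jag1 share and ligand sum thus follows in large part from the gate and is no finding.

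Lfng (Entrez 16848, chr5:140607341-140615545), the fringe gene whose upstream bases are shown above, had 13.3 and 11.7 CPM in S9-SCA-1+ cells. The S9-JAG1+ libraries had 3.81, 3.27 and 5.07 CPM. S9-Pαhi LMPs had 0.203, 0.376 and 0.548, OCPs 0.649, 0.999 and 0.651, and chondroblasts 0.841, 1.10 and 1.34. The S9-SCA-1+ libraries were above all others and the S9-JAG1+ libraries above all remaining ones, without overlap.

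Against the mean of the other 4, Lfng was higher in S9-SCA-1+ cells by 3.56 ± 0.19 (log2, edgeR adjusted p = 4.54e-09) and in S9-JAG1+ LMPs by 1.53 ± 0.20 (edgeR adjusted p = 2.89e-05). It was lower in S9-Pαhi LMPs (-2.77 ± 0.29) and in OCPs (-1.48 ± 0.26). The OCP value did not pass the test when the S9-SCA-1+ libraries were left out (-0.64, edgeR adjusted p = 0.178), and the value in chondroblasts went from -0.84 ± 0.24 to 0.05 (edgeR adjusted p = 0.886). Between S9-JAG1+ LMPs and chondroblasts, next in order, the log2 difference was 1.90 ± 0.27 (edgeR adjusted p = 3.37e-05), and between chondroblasts and OCPs it did not pass (edgeR adjusted p = 0.233).

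All 3 receptor genes were found in every library at levels far above the floor. The ratio of the highest to the lowest population mean was 1.41 for Notch3, 2.82 for Notch2 and 3.71 for Notch1, beside 2.33 for the ligand gene Jag2. In CPM per kb the summed receptor level ran from 66.1 ± 4.28 in S9-JAG1+ LMPs to 91.4 ± 6.09 in OCPs. Notch3 held the largest share in each population, from 49.1% in chondroblasts to 77.2% in S9-SCA-1+ cells.

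Notch1 (Entrez 18128, chr2:26457902-26503822), the receptor best known from T cell and vessel development, was at 111.3, 121.6 and 153.8 CPM in chondroblasts and at 70.9, 103.3 and 91.3 in OCPs. S9-JAG1+ LMPs had 32.8, 37.6 and 50.3 CPM, S9-Pαhi LMPs 35.5, 43.9 and 25.0, and S9-SCA-1+ cells 68.2 and 52.4. The chondroblast libraries were above all others and the Sox9 positive populations above the Sox9 negative ones. In chondroblasts the log2 fold change was 1.30 ± 0.16 (edgeR adjusted p = 8.47e-06), which fell to 1.12, under the fold limit, without chondroblast replicate 3. From S9-Pαhi LMPs to OCPs the difference was 1.34 ± 0.22 (edgeR adjusted p = 8.98e-04), a 2.54-fold higher level. Notch1 and Heyl were the 2 members called at this step, where 4.84% of all genes were called and 3.48% were called higher. Of the annotated exon bases, 9.76% in Notch1 and 6.03% in Notch3 also lie in a gene on the other strand.

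Notch2 (Entrez 18129, chr3:98013538-98150367) was lowest in S9-SCA-1+ cells, at 132.5 and 99.0 CPM, below all other libraries. The others had 201.6, 184.6 and 169.3 CPM in S9-JAG1+ LMPs, 216.5, 264.8 and 200.4 in S9-Pαhi LMPs, 310.2, 312.5 and 355.5 in OCPs and 294.6, 301.1 and 327.2 in chondroblasts. For Notch2 these cells had a value of -1.14 ± 0.12 (edgeR adjusted p = 6.52e-06), short of the fold limit, while the pairs with OCPs (-1.49 ± 0.14) and chondroblasts (-1.41 ± 0.14) passed it. OCPs and chondroblasts themselves did not pass the test for Notch2 (edgeR adjusted p = 0.644).

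Notch3 (Entrez 18131, chr17:32120820-32166896), a receptor known from mural cells and from muscle progenitors, was at 494.0 and 432.5 CPM in S9-SCA-1+ cells. It had 426.1, 463.4 and 385.2 CPM in S9-Pαhi LMPs, 430.2, 356.1 and 430.3 in OCPs, 371.6, 315.6 and 366.5 in S9-JAG1+ LMPs and 329.8, 314.6 and 338.8 in chondroblasts. Neighbours in this order overlapped throughout. Of its 10 pairs of populations 5 passed an adjusted p of 0.1 and 0 reached the fold limit, the largest absolute log2 difference being 0.50. The summed level of 10 mural cell genes was 108.3 and 133.7 CPM in the S9-SCA-1+ libraries and 229.1 to 314.6 elsewhere. The part of such cells in the Notch3 level was not tested.

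**Figure D3:**
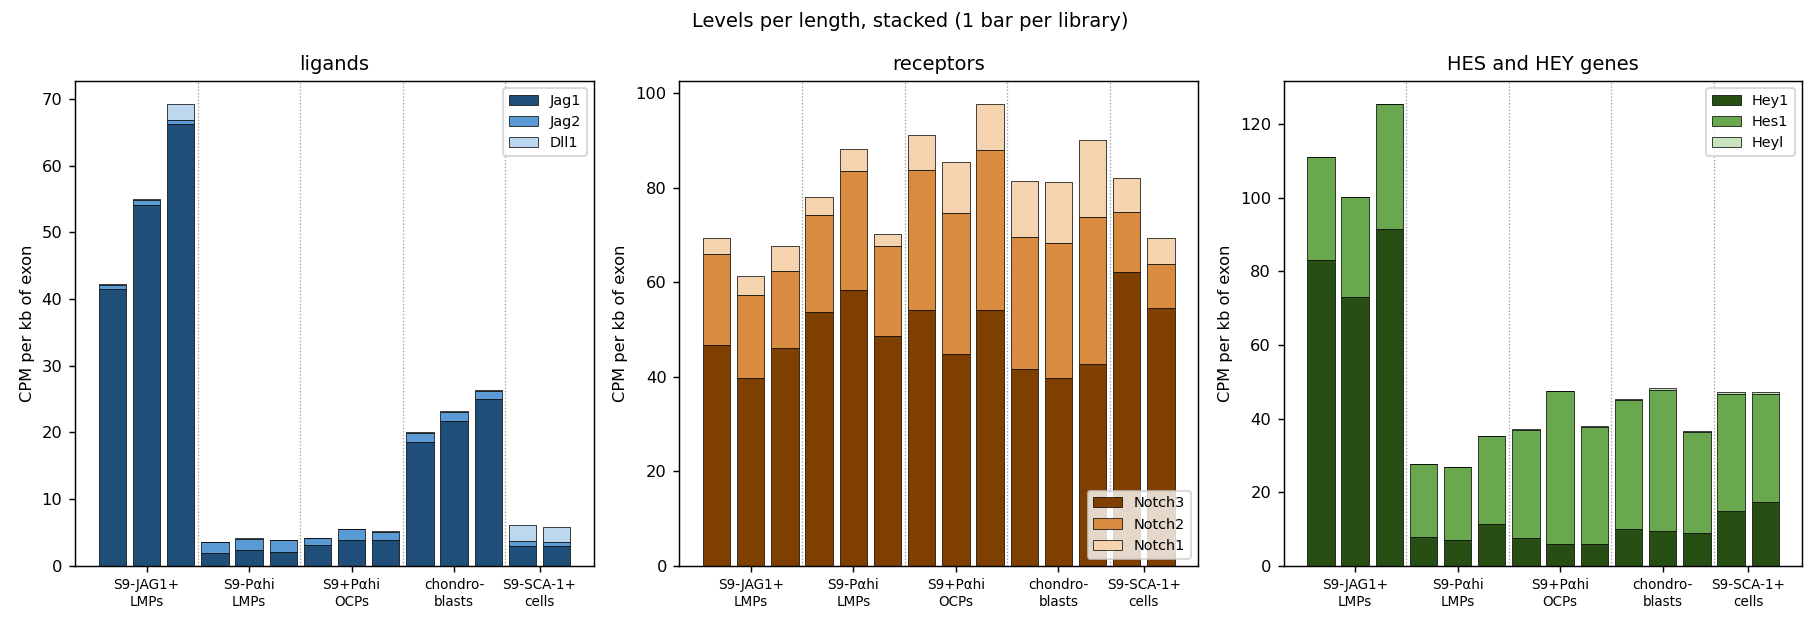
Levels per kb of exon in each library, stacked by gene, for the ligands (left), the receptors (middle) and the HES and HEY members (right); each bar is a library and the axes are linear in CPM per kb. Summed ligand levels were 55.5 on average in S9-JAG1+ LMPs and 3.89 to 5.93 on average in S9-Pαhi LMPs, OCPs and S9-SCA-1+ cells, receptor sums ranged between 66.1 and 91.4 on average, and Hey1 made the HES and HEY bar of S9-JAG1+ LMPs the highest. The JAG1 gate bears on the ligand bars of S9-JAG1+ LMPs, S9-Pαhi LMPs and S9-SCA-1+ cells.

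Hey1 (Entrez 15213, chr3:8663359-8667038), a repressor and frequent readout of Notch activity, was highest in the population that also carried the ligand. It was at 183.5, 161.3 and 201.9 CPM in S9-JAG1+ LMPs, at 33.1 and 38.0 in S9-SCA-1+ cells and at 17.0, 15.6 and 25.1 in S9-Pαhi LMPs. OCPs had 16.4, 13.3 and 12.8 CPM and chondroblasts 22.0, 20.5 and 19.7. The lowest S9-JAG1+ library was well above the highest of any other population. The log2 fold change was 3.11 ± 0.11 (edgeR adjusted p = 7.06e-11), an 8.62-fold higher level, and it lay between 3.04 and 3.20 when any library was left out.

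Chondroblasts, the other population with high Jag1, did not have high Hey1: against the S9-JAG1+ LMPs their log2 difference was -3.13 ± 0.16 (edgeR adjusted p = 4.92e-09), and they stood 0.12 ± 0.16 above S9-Pαhi LMPs (edgeR adjusted p = 0.561). At the step from S9-JAG1+ to S9-Pαhi LMPs Hey1 was lower by 3.25 ± 0.17 (log2, edgeR adjusted p = 1.95e-08), and it was 1 of 5 members called there, with Jag1, Dll1 and Lfng lower and Jag2 higher, where 7.00% of all genes were called, 2.58% lower and 4.42% higher. The Jag1 call there was set by the gate, which leaves 4 of the 9 other members, 3 lower and 1 higher. Dll1 was not called at this step without S9-JAG1+ replicate 3, with a log2 difference of -0.17 (edgeR adjusted p = 0.922).

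Hes1 (Entrez 15205, chr16:30065357-30067796), the HES gene expressed in most embryonic tissues, varied little. It was at 40.3, 39.1 and 49.1 CPM in S9-JAG1+ LMPs, 29.0, 28.6 and 34.8 in S9-Pαhi LMPs and 42.7, 60.1 and 46.2 in OCPs. Chondroblasts had 50.8, 55.9 and 39.9 CPM and S9-SCA-1+ cells 45.9 and 42.6. All S9-Pαhi libraries were below all others, with a log2 fold change of -0.59 ± 0.12 (edgeR adjusted p = 0.00599), under the fold limit. In S9-JAG1+ LMPs, where Hey1 was high, the value for Hes1 was 0.01 ± 0.12 (edgeR adjusted p = 0.970). Of the 10 pairs, 4 passed an adjusted p of 0.1 and 0 reached the fold limit.

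Heyl (Entrez 56198, chr4:123233556-123249870), another HEY family gene, was at 3.15 and 2.85 CPM in S9-SCA-1+ cells. It had 1.08, 1.81 and 1.45 CPM in chondroblasts and 0.933, 0.856 and 0.940 in OCPs. The S9-JAG1+ libraries had 0.343, 0.251 and 0.396 CPM and the S9-Pαhi libraries 0.529, 0.451 and 0.0996, the last below the floor of 3 counts. The S9-JAG1+ and S9-Pαhi libraries were the lowest and overlapped, and their means did not pass a test of the difference (edgeR adjusted p = 0.838). Heyl was higher in S9-SCA-1+ cells by 2.23 ± 0.27 (log2, edgeR adjusted p = 2.05e-05) and lower in S9-JAG1+ LMPs (-1.72 ± 0.35, edgeR adjusted p = 0.00127). In S9-Pαhi LMPs it was also called lower (-1.51 ± 0.34), which fell under the fold limit without S9-Pαhi replicate 3 (-1.12). The call between S9-Pαhi LMPs and OCPs (1.28 ± 0.40, edgeR adjusted p = 0.0519) was lost without S9-Pαhi replicate 3 (0.89, edgeR adjusted p = 0.144) or without OCP replicate 3 (1.23, edgeR adjusted p = 0.119).

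Per kb of exon, Hey1 made up 73.6% ± 1.11 (SD, n = 3) of the summed level of the 3 HES and HEY members in S9-JAG1+ LMPs and between 16.01% and 34.1% on average in the other populations, where Hes1 held the larger share. The sum was 112.2 CPM per kb ± 12.7 in S9-JAG1+ LMPs, and between 30.0 and 47.3 elsewhere.

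**Figure D4:**
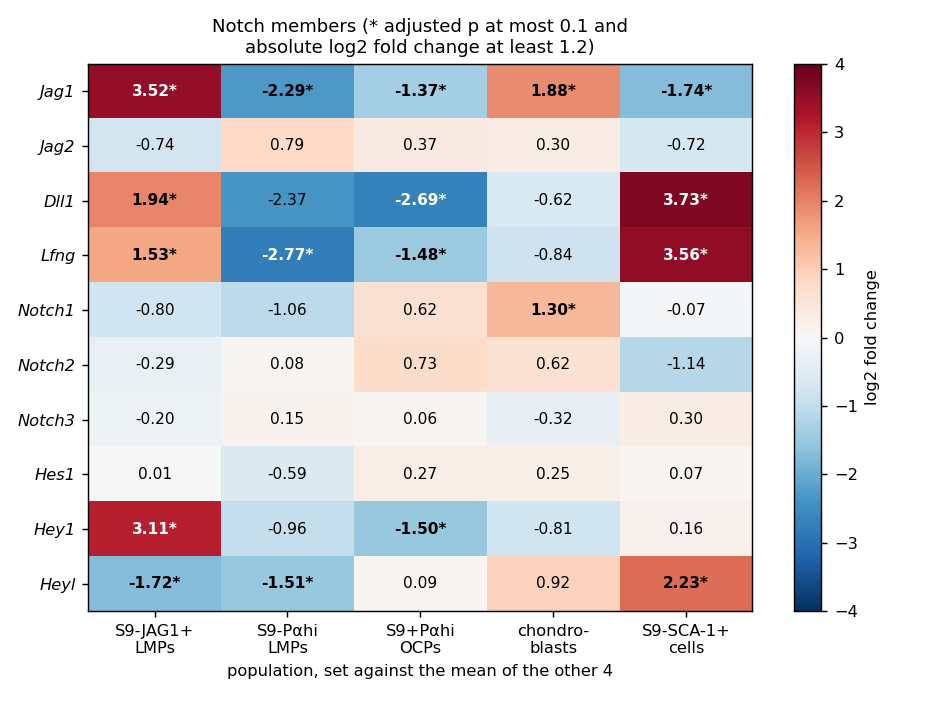
Log2 fold change of each member in each population against the mean of the other 4, from edgeR, as colour and number, with an asterisk where the gene was called. The S9-JAG1+ column held 4 calls higher (Jag1 3.52, Hey1 3.11, Dll1 1.94, Lfng 1.53) and Heyl lower (-1.72), and the S9-Pαhi and OCP columns held calls in the lower direction only. The JAG1 gate set the direction of Jag1 in S9-JAG1+ LMPs, S9-Pαhi LMPs and S9-SCA-1+ cells. Without S9-JAG1+ replicate 3 the Dll1 value in S9-JAG1+ LMPs was -1.32.

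To ask how far the rest of the pathway moved, 68 further genes were followed in lists of ligands, a receptor, glycosyltransferases, cleavage enzymes, trafficking proteins, nuclear cofactors, corepressors and targets. Hes2, Hes3 and Hes5 did not pass the filter on low counts, which left 65. In S9-JAG1+ LMPs 11 of 65 were called (5 higher, 6 lower), which is 16.9% beside 10.6% of all genes. The numbers were 3 in S9-Pαhi LMPs (4.62% beside 3.84%), 3 in OCPs (4.62% beside 5.01%), 9 in chondroblasts (13.8% beside 12.7%) and 5 in S9-SCA-1+ cells (7.69% beside 11.3%). Outside the S9-JAG1+ LMPs the share called was thus near or below that of all genes. The median log2 fold change of the 65 genes was between -0.09 and 0.05 in the 5 comparisons.

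Of the 10 genes of receptor cleavage, 0 were called in each of the 5 comparisons by edgeR, where 3.84% to 12.7% of all genes were, and at these shares 0 of 10 says little about these genes. Between 0 and 6 of them passed an adjusted p of 0.1. Rbpj, the DNA-binding partner of the receptor, was at 65.2, 67.1 and 78.1 CPM in S9-JAG1+ LMPs and between 65.3 and 96.3 in all other libraries.

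Among the targets, Nrarp, which encodes an ankyrin repeat protein that damps Notch signalling and is induced by it, was at 30.9, 32.7 and 39.3 CPM in S9-JAG1+ LMPs. It was at 16.1 and 18.7 CPM in S9-SCA-1+ cells, at 9.15, 8.21 and 10.52 in chondroblasts and between 2.07 and 4.99 in S9-Pαhi LMPs and OCPs. Its log2 fold change was 2.44 ± 0.14 in S9-JAG1+ LMPs (edgeR adjusted p = 1.24e-08), 1.21 ± 0.17 in S9-SCA-1+ cells (lost in 8 of 20 alternatives, the replicate block among them), -1.62 ± 0.19 in OCPs and -2.12 ± 0.20 in S9-Pαhi LMPs. Of the Nrarp exon bases, 79.4% also lie in Gm38287 on the other strand, so that the count can hold reads of both.

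Hey2, whose upstream bases are shown above with 1 core, was at 6.55, 3.10 and 3.69 CPM in S9-JAG1+ LMPs and at 2.32, 4.28 and 4.04 in chondroblasts, which overlapped. All other libraries had 0.805 to 1.59 CPM of Hey2. Its log2 fold change in S9-JAG1+ LMPs was 1.57 ± 0.25 (edgeR adjusted p = 1.70e-04), a call lost without S9-JAG1+ replicate 1. Hes7, a gene of the somite clock, was at 2.01, 2.81 and 4.36 CPM in S9-JAG1+ LMPs and at 0.841 to 1.69 elsewhere, with a log2 fold change of 1.53 ± 0.22. Without S9-JAG1+ replicate 3 the value for Hes7 was 1.195 (edgeR adjusted p = 0.00182), just under the fold limit. Hes6, an inhibitor of HES1 known from myoblasts and neurons, was called higher in S9-SCA-1+ cells at 1.42 ± 0.07, with 112.5 and 110.7 CPM against 36.6 to 50.5 elsewhere.

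Of the other ligands, Dll3, a Delta protein that does not activate receptors on neighbouring cells, was called in S9-JAG1+ LMPs at 1.32 ± 0.51 (edgeR adjusted p = 0.0494), and without replicate 3 of that population the value was -0.41 (edgeR adjusted p = 0.456). In chondroblasts Dll3 was higher by 2.24 ± 0.48 (6.66, 4.72 and 8.40 CPM), and in S9-SCA-1+ cells it was -2.77 ± 0.84. Dll4, the Delta ligand of endothelium, was at 1.28, 1.30 and 1.61 CPM in chondroblasts and at 0.163 to 0.713 elsewhere, a log2 fold change of 2.15 ± 0.26. Summed over 12 endothelial markers, the level was 38.1 to 62.4 CPM in chondroblasts and 20.2 to 34.6 elsewhere, and the part of such cells in Dll4 was not tested. Dlk1, a non-canonical ligand, was called higher in S9-Pαhi LMPs (1.31 ± 0.20) and lower in S9-SCA-1+ cells (-2.14 ± 0.30). The S9-Pαhi call was lost without the S9-SCA-1+ libraries. Dlk1 was at 278.4 to 331.6 CPM in S9-Pαhi LMPs and at 222.2 to 302.9 in OCPs, which overlapped. Its paralog Dlk2 was called higher in chondroblasts (2.35 ± 0.44), at 0.639, 0.479 and 0.785 CPM, and was at no more than 0.238 CPM elsewhere. It was also called in OCPs, but its 3 libraries there had 0, 2 and 2 counts, under the floor, and the call was lost in 10 of 21 alternatives, among them no filter on low counts.

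Among the glycosyltransferases, Eogt, which adds O-GlcNAc to the EGF repeats of Notch receptors, was at 111.1, 137.6 and 138.3 CPM in S9-JAG1+ LMPs and at 10.55 to 29.9 elsewhere. The log2 fold change of Eogt was 3.10 ± 0.11 (edgeR adjusted p = 8.48e-11), close in size to that of Hey1. Gxylt2, which adds xylose to O-glucose on the same repeats, went the other way at -2.36 ± 0.23, with 2.14, 2.05 and 1.15 CPM against 4.68 to 14.2 elsewhere. The fringe gene Mfng was called higher in S9-SCA-1+ cells (1.98 ± 0.51), at 0.455 and 0.641 CPM, a call that was lost without S9-SCA-1+ replicate 3. Its value in chondroblasts was -1.32 ± 0.65 (edgeR adjusted p = 0.0959), with 1, 2 and 4 counts, and that call was lost in 14 of 20 alternatives, among them the replicate block, DESeq2's Wald test and no filter on low counts.

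In S9-JAG1+ LMPs 2 of 15 trafficking genes, 2 of 9 nuclear cofactor genes and 1 of 12 corepressor genes were called lower, where 7.70% of all genes were. Maml2, a Mastermind coactivator, was at 5.09, 4.57 and 4.84 CPM there against 9.51 to 41.6 elsewhere (-2.10 ± 0.15, edgeR adjusted p = 7.50e-08). Dtx1, a Deltex ubiquitin ligase, was at 1.03, 0.671 and 0.634 CPM in S9-JAG1+ LMPs and at 14.5, 19.1 and 19.5 in chondroblasts, with log2 fold changes of -2.37 ± 0.24 and 3.26 ± 0.16, and was also called lower in S9-Pαhi LMPs (-1.23 ± 0.22), a call lost in 8 of 21 alternatives. Dtx4 had -1.42 ± 0.20 and 1.29 ± 0.16 in the same 2 populations. The acetyltransferase gene Kat2b had -1.23 ± 0.24, lost in 4 of 21 alternatives, and 1.56 ± 0.19. Tle2, a Groucho corepressor, had -2.36 ± 0.36 in S9-JAG1+ LMPs, 1.55 ± 0.27 in OCPs and 1.43 ± 0.27 in chondroblasts.

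Along the steps between populations, 8 of 65 further genes (12.3%, beside 7.00% of all genes) were called from S9-JAG1+ to S9-Pαhi LMPs, with Nrarp (-3.65), Eogt (-2.41), Dll3 (-2.35) and Hey2 (-1.76) lower and Maml2 (1.82), Tle2 (1.76), Gxylt2 (1.72) and Dlk1 (1.69) higher. The Dll3 value became -0.60 without S9-JAG1+ replicate 3 (edgeR adjusted p = 0.450). From S9-Pαhi LMPs to OCPs 2 were called (3.08%, beside 4.84% of all genes), Dll3 (1.96) and Tle2 (1.38), both higher, and the Dll3 call was lost in 10 of 19 alternatives. From OCPs to chondroblasts 7 were called (10.8%, beside 7.77%), with Dlk2 (3.42), Dtx1 (2.68), Hey2 (1.66), Neurl1b (1.45), Nrarp (1.36) and Dll4 (1.30) higher and Mfng (-1.93) lower. Jag1 was called higher at the same step from OCPs to chondroblasts, while Hey1 had a value of 0.55 ± 0.16, under the fold limit. Population and stage cannot be told apart at this step, and a link of Hey2 or Nrarp to Jag1 was not tested. Neurl1b, a ligand ubiquitin ligase gene, was named after its values were seen.

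**Figure D5:**
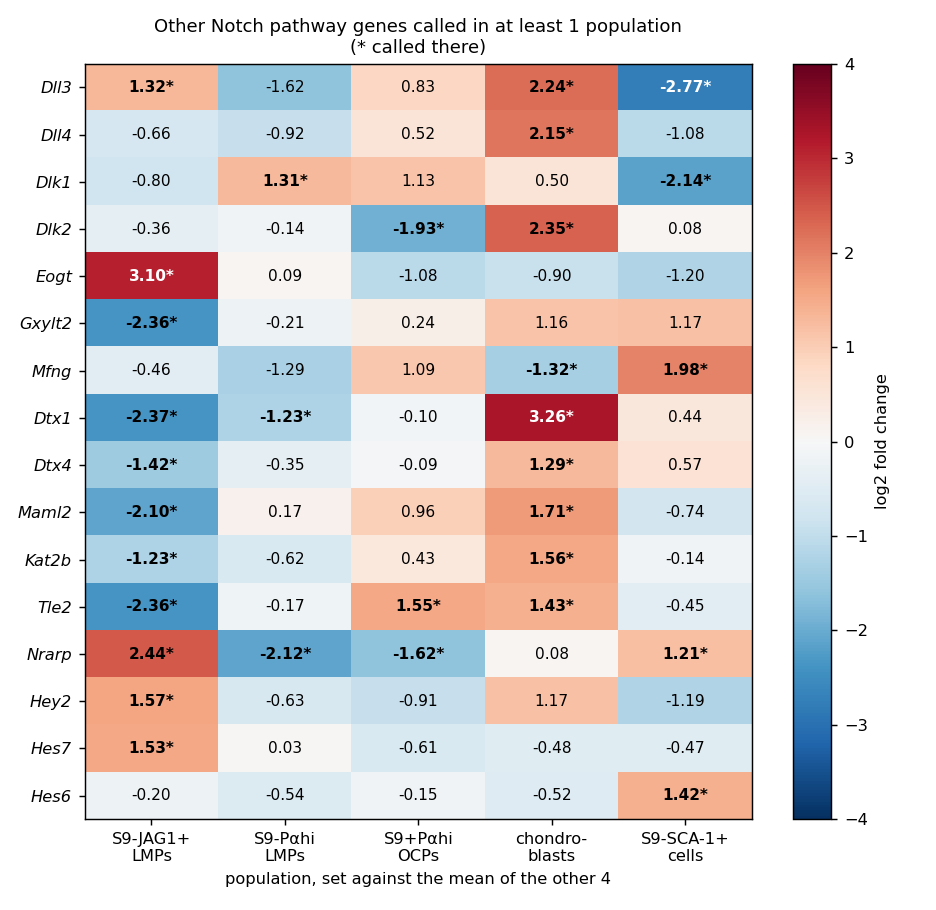
Log2 fold changes from edgeR of the 16 further pathway genes called in at least 1 population, each population set against the mean of the other 4, with an asterisk where called. In the S9-JAG1+ column Eogt (3.10), Nrarp (2.44), Hey2 (1.57), Hes7 (1.53) and Dll3 (1.32) were called higher, and in the chondroblast column Dtx1 had the largest value (3.26). Without S9-JAG1+ replicate 3 Dll3 had -0.41 and Hes7 1.195, neither called, and the Hey2 call was lost without S9-JAG1+ replicate 1.

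For each member called in at least 1 population, the 3 genes with the most similar profile were listed by the root mean square difference of centred log2 CPM over the 14 libraries, among 12176 genes. This measure is in log2 units, and a value of 0 would be an identical profile. The nearest to Jag1 was Tspan18 (0.38), followed by Clstn2 (0.61) and Rcsd1 (0.75), where the SD of Jag1 itself was 1.85. Hey1 was nearest to Naaa (0.43), Insm1 (0.49) and Epha2 (0.53). Lfng was nearest to Nav2 (0.46), then Bcar3 (0.82) and Prokr2 (0.83), and for Dll1 the list was Prokr2 (1.14), Lfng (1.16) and Nav2 (1.22). Heyl stood closest to Sema3c (0.43), Epn3 (0.44) and Pde1b (0.49), and Notch1 to Abca1 (0.25), Pik3ip1 (0.30) and Myo6 (0.30). Libraries of a population are not independent points in this measure, which describes likeness only.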

How the data were processed

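RNA-seq libraries were made from poly(A) RNA of sorted cells. Per the study's methods the authors mapped single-end reads to mm10 with STAR (1 hit per multimapping read) and deposited counts of reads that start within RefSeq exons, made with QuasR; whether strand was used is not given in the sources used here. Of 24454 genes, keyed by Entrez ID, 24374 were given symbols, and the 80 others held 0.358% of counts. Gene positions and exon overlaps are from GENCODE annotation of the same assembly.

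Groups came from the labels. Counts were fitted with edgeR 4.0.16 in R 4.3.3 (TMM, filterByExpr, 5 population means, quasi-likelihood F test), with p-values adjusted over 15125 genes by Benjamini-Hochberg. The study's methods give p at most 0.1 with the same fold limit and name no adjustment there. Calls here needed an adjusted p no higher than 0.1 and a log2 fold change of 1.2 or more in size. Log2 CPM for profiles had a prior count of 2, and floors of 3 counts cover counting error only. The labels do not state whether replicates were separate litters or sorts, so p-values measure the spread between these libraries. Tested on simulated data, 191 of 200 genes changed by 2 log2 units in S9-JAG1+ libraries were recovered, with 2 false calls among 14784 genes; for S9-Pαhi against S9-JAG1+ LMPs it was 187, with 7 false calls. Replicates differed by 7.80 to 76.3 times sampling noise (chi-square per degree of freedom), so none was merged.

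All 10 members were named; other pathway genes when called in at least 1 of 5 comparisons, up to 5 per list by size; and the 3 nearest profiles per called member. The members, lists and rules were chosen with earlier results of these data known. DESeq2 1.42.0, a replicate block, other filters, thresholds and left-out libraries were tried as alternatives.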

Additional observations from a re-analysis of the deposited data

How the results depend on the processing

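For members, 57 log2 fold changes that passed the adjusted p were followed through 1141 values under the alternatives; 1037 kept direction and threshold, 101 lost the threshold and 3 changed sign. The sign changes were Dll1 in S9-JAG1+ LMPs without S9-JAG1+ replicate 3 (-1.32) and, an omission chosen after seeing the data, without that library and S9-SCA-1+ replicate 3 (-1.33), and Lfng in chondroblasts without the S9-SCA-1+ libraries (0.047). Leaving out each library in turn, Dll1 in S9-JAG1+ LMPs ranged from -1.32 to 2.55. DESeq2 size factors, no filter on low counts and DESeq2's Wald test moved no count of members or pathway genes by over 1.5 times; DESeq2 gave no adjusted p for Dll1.

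An adjusted p of at most 0.05 with no fold limit gave 8 members in S9-JAG1+ LMPs, 7 in S9-Pαhi LMPs, 7 in chondroblasts, 7 in S9-SCA-1+ cells, 4 from S9-Pαhi LMPs to OCPs and 3 from OCPs to chondroblasts. The same setting gave 29, 8, 11, 35 and 29 further pathway genes in S9-JAG1+ LMPs, S9-Pαhi LMPs, OCPs, chondroblasts and S9-SCA-1+ cells, and 19, 7 and 18 for the steps from S9-JAG1+ to S9-Pαhi LMPs, to OCPs and to chondroblasts. It called 6403, 1706, 3226, 8902 and 5831 of all genes in the 5 populations (1599, 581, 758, 1921 and 1703 under the rule used here) and 3263, 1931 and 3982 at the steps (1059, 732 and 1175). Without the S9-SCA-1+ libraries 2 members were called in OCPs (Jag1 and Hey1), where 614 of all genes were called. Without chondroblasts, so at E10.5 only, 6 pathway genes were called in OCPs and 8 in S9-SCA-1+ cells. That setting called 1104 of all genes in OCPs and 1503 in S9-SCA-1+ cells. Beyond these the cause of a change was not tested.

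Leaving out each library in turn gave 1 to 2 members called in chondroblasts (1 without chondroblast replicate 3), 3 to 5 from S9-JAG1+ to S9-Pαhi LMPs (3 without S9-Pαhi replicate 1), 1 to 2 from S9-Pαhi LMPs to OCPs (1 without OCP replicate 3 or S9-Pαhi replicate 3), and 1 to 2 from OCPs to chondroblasts (2, with Dll1, without S9-JAG1+ replicate 3). At the step from S9-Pαhi LMPs to OCPs it gave 0 to 3 pathway genes, with 0 without OCP replicate 2 and 1 without OCP replicate 3, S9-Pαhi replicate 1 or 3, or any 1 chondroblast or S9-SCA-1+ library. Of all genes, these omissions called 1694 to 2069 in chondroblasts and 934 to 1129 from S9-JAG1+ to S9-Pαhi LMPs. They called 556 to 1015 from S9-Pαhi LMPs to OCPs and 961 to 1237 from OCPs to chondroblasts.

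The replicate numbers did not pair the libraries: of 26 pairs with the same number 4 correlated over 0.1 (range -0.18 to 0.31), and 5 of 14 libraries matched their own number best. OCP replicate 1 correlated at 0.41 with S9-Pαhi replicate 3 and at -0.31 with S9-Pαhi replicate 2. The median of pairs with different numbers was -0.003. A replicate block does not model likeness across numbers, and a shared sort was not tested. With a replicate block 4 members were called in S9-JAG1+ LMPs instead of 5 (Dll1 at 1.55, edgeR adjusted p = 0.104), and the numbers of members in the other comparisons were the same. Of the further pathway genes the block lost Dll3 in S9-JAG1+ LMPs, Mfng in chondroblasts and Nrarp in S9-SCA-1+ cells, where it added Dll4, Gxylt2 and Eogt.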
